A study of Mus musculus with 11 samples.

Results

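The Zic genes encode zinc-finger transcription factors, and 4 of them, Zic1, Zic2, Zic4 and Zic5, were followed across 3 sensory nuclei of the newborn mouse thalamus. They were chosen by name from the 54752 gene identifiers of the count tables, after Zic1 was already known as a gene of high level in the visual nucleus, so the choice drew on the same contrasts between nuclei that are described below. The differences of the 4 genes between nuclei are therefore given as a description with standard errors (SE), no p-value of a member is printed and its calls are only counted, and other Zic genes were not analysed here. All 4 genes passed the filter on low counts.

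Zic proteins share a zinc-finger domain with the Gli factors of the Hedgehog pathway, can bind Gli-type DNA sites, and in several systems modulate transcription by beta-catenin and its Tcf/Lef partners. The genes lie in divergent pairs, and their best known roles are in neural tube closure, forebrain midline and cerebellar development. In the visual system Zic2 is known for directing retinal axons to the same side of the brain. In the forebrain, Zic1 and Zic4 are also known from the septum, the thalamus and the medial habenula, and Zic genes are expressed in the meninges.

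RNA was sequenced from fluorescent thalamic neurons sorted at postnatal day 0 from the dorsolateral geniculate nucleus (dLG, visual, n = 4 libraries), the ventral posteromedial nucleus (VPM, somatosensory, n = 4) and the ventral medial geniculate nucleus (MGv, auditory, n = 3). All mice were of the ICR/CD-1 strain with the genotype Gbx2CreER-IRES-EGFP/+::R26lsl-tdTomato/+, in which tamoxifen-induced Cre under control of Gbx2, a gene of thalamic neurons, switches on tdTomato; only cells of this lineage that were labelled and dissected with their nucleus were read. Each library pooled 4 brains and none of the nuclei was manipulated, so the question was how the nuclei differ at birth. Totals were 15867673 to 22699900 counts in dLG, 18909454 to 23559130 in VPM and 10175653 to 13164909 in MGv, and 3 counts in a library corresponded to 0.129 to 0.292 CPM, the count scaled to a library total common to all. The libraries dLG replicate 2, VPM replicate 3 and MGv replicate 1 stood apart from the rest of their nuclei, with Hspa8, a constitutive chaperone gene, at 3.05, 4.09 and 5.56 CPM against 159 to 581 CPM in the other 8 libraries; the members' values without these 3 libraries are given below, and without them the calls in dLG against VPM rose from 1704 to 2618 of all genes tested and from 7 to 10 of the pathway genes described below. The sorted cells carried neuronal identity in all nuclei: 7 pan-neuronal markers summed to 9240 to 12600 CPM, and 6 markers of thalamic relay neurons to 1690 to 3090 CPM. Single markers within these sums differed between nuclei and went different ways. In dLG against MGv, all 6 relay markers were called, 3 higher in dLG (among them Rora, 1280 against 539 CPM) and 3 higher in MGv (among them Tcf7l2, 469 against 1170 CPM). Of the pan-neuronal markers 2 were called there, Nefm higher in dLG (837 against 286 CPM) and Rbfox3 higher in MGv (159 against 249 CPM). Over all genes tested, 16.1% were called in that contrast. In VPM against MGv, 4 of the 7 pan-neuronal and 5 of the 6 relay markers were called, beside 19% of all genes tested. In dLG against VPM, 1 and 3 were called, beside 10.7%.

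On the mouse build GRCm38, Zic1 (ENSMUSG00000032368, chr9:91358058-91365810, minus strand) and Zic4 (ENSMUSG00000036972, chr9:91362413-91389348, plus strand) overlap over 3398 bases, with their outermost starts 3397 bases apart. The overlap holds 60 bases that are exonic in both genes, or 1.054% of the exonic bases of Zic1 and 0.5806% of those of Zic4. Zic5 (ENSMUSG00000041703, chr14:122456795-122465677, minus strand) and Zic2 (ENSMUSG00000061524, chr14:122475435-122479852, plus strand) are separated by 9757 bases and point away from each other. The library kit does not mark strand, so reads from exonic bases shared by Zic1 and Zic4, or by Zic4 and the antisense transcript Gm37477 (468 bases, 4.528% of Zic4), could not be told apart.

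The regions upstream of Zic1 and Zic5, the minus-strand gene of each pair, are shown because the genes of a pair were set side by side throughout. Both are RefSeq sequences of build GRCm38.p6, from 250 to 51 bases before the annotated start, written 5′ to 3′ on the strand of the gene, and neither holds an annotated exon. Capitals mark matches on either strand to GGGCGG (a GC box), CACGTG (an E-box) and CCAAT (a site of NF-Y).
Zic1 (chr9:91365819-91366018): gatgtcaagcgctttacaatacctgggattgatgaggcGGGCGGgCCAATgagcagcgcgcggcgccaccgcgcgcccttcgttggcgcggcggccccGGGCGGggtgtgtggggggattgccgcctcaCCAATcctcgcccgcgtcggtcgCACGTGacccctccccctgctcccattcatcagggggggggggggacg
Zic5 (chr14:122465709-122465908): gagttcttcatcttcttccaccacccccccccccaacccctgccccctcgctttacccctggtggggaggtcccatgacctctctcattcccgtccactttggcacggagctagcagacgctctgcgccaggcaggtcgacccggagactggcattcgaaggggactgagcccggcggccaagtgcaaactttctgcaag
The Zic1 window held 71.5% G and C and 24 CpG dinucleotides. It held GGGCGG beginning 212 and 152 bases before the start, CCAAT beginning 205 and 121 bases before it, and CACGTG beginning 98 bases before it. The Zic5 window held 63% G and C and 10 CpG dinucleotides, with no match to these motifs. Over 32851 RefSeq promoter windows of the same length, the median was 51.5% G and C and 4 CpG dinucleotides, and GGGCGG stood in 24.6%, CCAAT in 28.4% and CACGTG in 4.34% of them. Also searched, on both strands, were TAATTA (a homeodomain core, in 4.19% of windows), CAGCAGG (a Zic-type core, 6.82%) and TGGGTGGTC (a Gli-type site, 0.192%), none of which was found upstream of Zic1, Zic4 or Zic5. The window of Zic4 lay within exons of its other transcripts and held 43.5% G and C, 2 CpG dinucleotides and none of the 6 motifs. Zic2 is named only.

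Zic1 and Zic4 were the abundant members, and both were highest in dLG in every library. Zic1, a regulator of neural progenitor proliferation and cerebellar development, was at 308, 369, 305 and 351 CPM in dLG replicates 1 to 4. It was at 75.8, 68.2, 90.1 and 82.8 CPM in VPM replicates 1 to 4, and at 82.9, 67.2 and 61.9 CPM in MGv replicates 1 to 3. The dLG libraries thus stood clear of all others, whereas VPM and MGv overlapped. The means were 333 ± 31.8 CPM (SD, n = 4) in dLG, 79.2 ± 9.4 (n = 4) in VPM and 70.7 ± 10.9 (n = 3) in MGv. On the log2 scale Zic1 was 2.07 ± 0.14 (SE) higher in dLG than in VPM and 2.24 ± 0.16 higher than in MGv, while VPM exceeded MGv by only 0.16 ± 0.14. In such bulk samples, fewer cells with a transcript and less of it per cell cannot be told apart, here and for every gene below.

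Zic4, the partner of Zic1 in the cerebellum and a gene of the early thalamus, was at 440, 462, 461 and 537 CPM in dLG replicates 1 to 4. In VPM it was at 38.3, 39.3, 84.9 and 71 CPM, and in MGv at 28.3, 28.8 and 10.1 CPM. The 3 nuclei did not overlap, in the order dLG, VPM, MGv. Within VPM, replicates 3 and 4 were close to each other and well above replicates 1 and 2, which were also alike. The means were 475 ± 42.5 CPM (SD, n = 4), 58.4 ± 23.3 (n = 4) and 22.4 ± 10.6 (n = 3). Zic4 was 3.02 ± 0.32 (SE, log2) higher in dLG than in VPM, 4.4 ± 0.39 higher in dLG than in MGv, and 1.38 ± 0.34 higher in VPM than in MGv.

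Zic2 and Zic5 were scarce, and both were lowest in MGv. Zic2, required for the midline of the forebrain, was at 0.852, 3.65, 2.45 and 2.29 CPM in dLG and at 2.09, 2.08, 2.23 and 1.81 CPM in VPM. In MGv it was at 0.376, 0.176 and 0.389 CPM, from 11 counts in all 3 libraries together. The dLG libraries spread across the whole VPM range, with replicate 1 below and replicate 2 above all VPM libraries, and every dLG and VPM library lay above every MGv library. The means were 2.31 ± 1.15 CPM in dLG, 2.05 ± 0.177 in VPM and 0.313 ± 0.12 in MGv. Zic2 differed by 0.18 ± 0.42 (SE, log2) between dLG and VPM, less than its error, and by 2.86 ± 0.56 and 2.68 ± 0.56 for dLG and VPM against MGv.

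Zic5, a neighbour of Zic2 known from the dorsal neural tube and neural crest, was at 6.21, 15.4, 14 and 7.49 CPM in dLG. In VPM it was at 2.13, 2.81, 9.99 and 3.23 CPM, so that replicate 3, one of the libraries that stood apart, lay within the dLG range while the other 3 VPM libraries lay below every dLG library. In MGv it had 2, 1 and 0 counts. The means were 10.8 ± 4.59 CPM in dLG, 4.54 ± 3.66 in VPM and 0.0793 ± 0.0755 in MGv. Zic5 was 1.26 ± 0.47 (SE, log2) higher in dLG than in VPM, and 1.99 higher without VPM replicate 3. Against the 3 counts of MGv, the summed dLG libraries had a ratio of 129 (95% exact interval 44 to 627) and the summed VPM libraries one of 48.5 (16.4 to 236), intervals that cover counting error only.

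**Figure D1:**
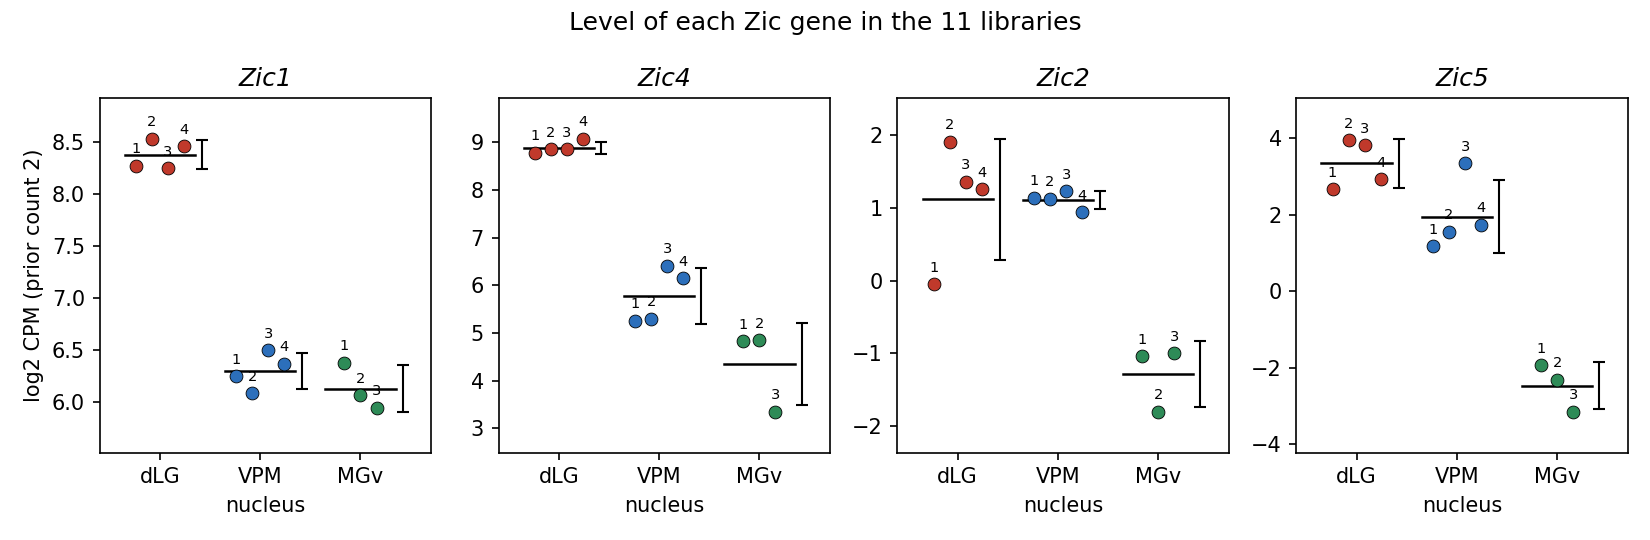
Level of Zic1, Zic4, Zic2 and Zic5 in each library, as log2 CPM with a prior count of 2 (vertical axes differ between panels), by nucleus; points are libraries with their replicate number, lines the mean and bars the SD. The dLG points of Zic1 and Zic4 stand above all others, Zic2 is alike in dLG and VPM, and VPM replicate 3 of Zic5 (9.99 CPM) lies among the dLG libraries; MGv replicate 3 of Zic5 has 0 counts, and its position comes from the prior count.

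The means of all 4 genes ran in the order dLG, VPM, MGv, but which nuclei stood clear of each other differed between members. Of the 4 genes, 2 (Zic1 and Zic4) had all dLG libraries above all 7 others, a pattern held by 3.01% of the 15907 genes tested. The same 2 had all dLG above all VPM libraries (7.49% of genes tested), all 4 had all dLG above all MGv libraries (12.4%), and 3 (Zic2, Zic4 and Zic5) had all VPM above all MGv libraries (13.1%). With edgeR's quasi-likelihood test at a Benjamini-Hochberg (BH) adjusted p under 0.1, the threshold for every call here, dLG against VPM called 2 of the 4, both higher in dLG, where 10.7% of all genes tested were called and 4.97% were called higher in dLG. In dLG against MGv, 4 of 4 were called higher in dLG, beside 16.1% of all genes called and 8.61% called higher in dLG. In VPM against MGv, 3 of 4 were called higher in VPM, beside 19% called and 10.4% called higher in VPM. Nothing is read from these counts of members, since the contrasts entered the choice of the family. Over the 4 genes the median log2 difference was 1.67, 3.63 and 2.03 in these 3 contrasts, while over all genes tested it was 0, 0.02 and 0.02.

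**Figure D2:**
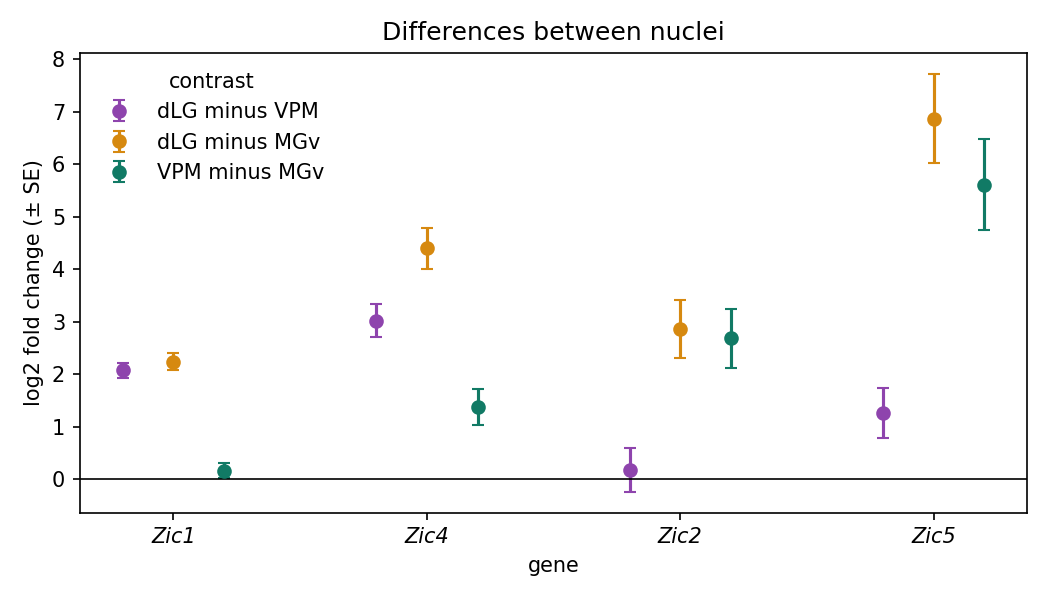
Fitted log2 fold change (vertical axis) of each Zic gene in the 3 contrasts between nuclei, with bars for the SE of the fit over 11 libraries; values above 0 are higher in the nucleus named first. Zic1 differs between dLG and the other nuclei but by only 0.16 between VPM and MGv, Zic2 differs by more than its SE only against MGv, and the fitted values of Zic5 against MGv (3 counts in all) depend on how few counts are handled.

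Without the 3 libraries that stood apart, the direction of the differences stayed, other than that of Zic2 between dLG and VPM. Zic1 was then 2.09 (log2) higher in dLG than in VPM and 2.3 higher than in MGv, and Zic4 was 3.27 and 4.6 higher. Zic5 was 1.76 higher in dLG than in VPM. Zic2 stood at -0.08 between dLG and VPM, against 0.18 with all libraries.

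To compare levels between members, counts were divided by the merged exonic length of each gene, giving CPM per kilobase (RPKM). In dLG, Zic1 was at 58.5 ± 5.58 RPKM (SD, n = 4), Zic4 at 45.9 ± 4.11, Zic5 at 2.2 ± 0.939 and Zic2 at 0.803 ± 0.398. In VPM the order was Zic1 (13.9 ± 1.65), Zic4 (5.65 ± 2.25), Zic5 (0.929 ± 0.748) and Zic2 (0.712 ± 0.0616), the last pair differing by less than the spread of Zic5. In MGv, Zic1 was at 12.4 ± 1.92 and Zic4 at 2.17 ± 1.03 RPKM, and Zic2 (0.109 ± 0.0415) lay above Zic5 (0.0162 ± 0.0154). The order of Zic1 and Zic4 rests on the length used: Zic4 has 12 annotated transcripts and 10335 merged exonic bases but a longest transcript of 3891 bases, and with the longest transcripts Zic4 stood above Zic1 in dLG (122 against 59.4 RPKM), close to it in VPM (15 against 14.1) and below it in MGv (5.75 against 12.6).

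The 4 genes summed to 107 ± 8.77 RPKM in dLG, 21.2 ± 4.49 in VPM and 14.7 ± 2.74 in MGv. Of that sum, Zic1 made up 54.4% in dLG, 66.6% in VPM and 84.9% in MGv, while Zic4 made up 42.8%, 25.9% and 14.3%. These shares rest on the merged exons: with the longest transcripts, Zic1 made up 32.2%, 47.1% and 69.4% and Zic4 66.1%, 47.2% and 29.8%, of sums of 185, 30.9 and 18.5 RPKM. With merged exons, Zic5 took 2.05%, 4.07% and 0.0994% of it, and Zic2 took 0.734%, 3.46% and 0.763%.

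Within each pair, the ratio of reads in the same library also differed by nucleus, and it needs no scaling between libraries. The count of Zic4 over that of Zic1 was 1.43, 1.25, 1.51 and 1.53 in dLG, 0.506, 0.577, 0.942 and 0.858 in VPM, and 0.341, 0.428 and 0.163 in MGv. The nuclei did not overlap in this ratio, which averaged 1.43 ± 0.128 (SD) in dLG, 0.721 ± 0.212 in VPM and 0.311 ± 0.135 in MGv. The count of Zic5 over that of Zic2 was 7.29, 4.21, 5.71 and 3.27 in dLG, 1.02, 1.35, 4.47 and 1.79 in VPM, and 0.4, 0.5 and 0 in MGv. Here VPM replicate 3 again lay within the dLG range, and the MGv ratios rested on 3 counts of Zic5 and 11 of Zic2.

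**Figure D3:**
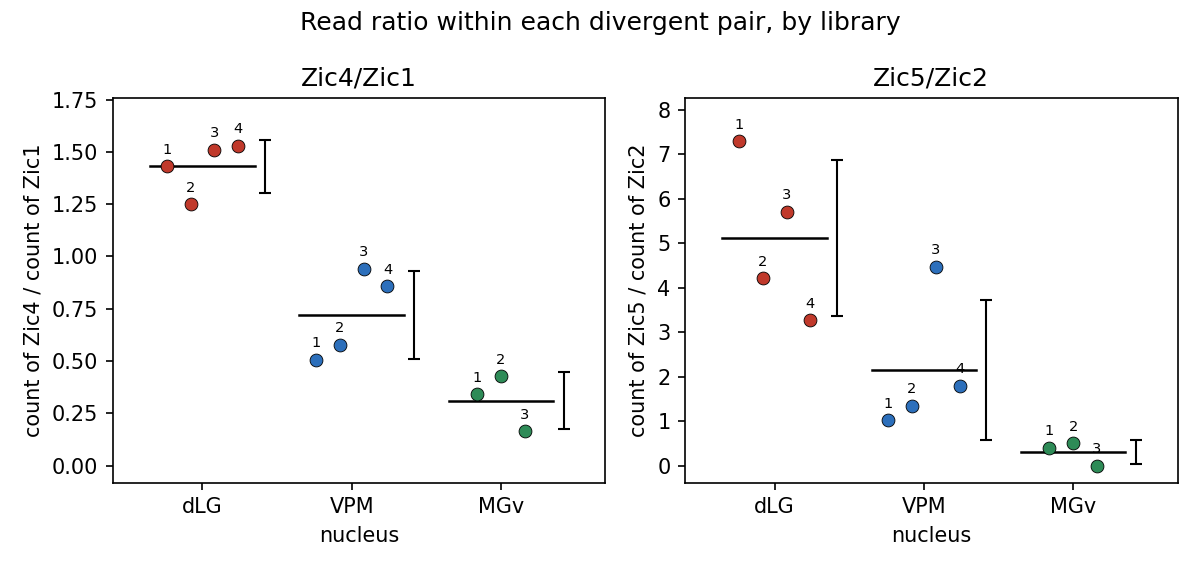
Ratio of read counts within each divergent pair (vertical axes, linear, from 0), Zic4 over Zic1 and Zic5 over Zic2, in each of the 11 libraries by nucleus; points carry replicate numbers, lines are means and bars the SD. The Zic4/Zic1 ratio falls into separate ranges of 1.25 to 1.53 in dLG, 0.506 to 0.942 in VPM and 0.163 to 0.428 in MGv.

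Across the 11 libraries, Pearson's r of log2 CPM was 0.956 for Zic1 and Zic4 and 0.894 for Zic2 and Zic5, the genomic pairs, and 0.492 for Zic1 and Zic2, the lowest of the 6 combinations. The others were 0.851 for Zic4 and Zic5, 0.709 for Zic1 and Zic5 and 0.616 for Zic2 and Zic4. These values describe the libraries only, because libraries of a nucleus share its level.

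Genes next to the Zic loci were read to see how far the pattern between nuclei extended along the chromosome. They were the nearest 3 protein-coding genes on each side of a pair and all other annotated genes starting within 100 kb, 25 in all, of which 14 had enough counts to be tested. In dLG against VPM, 3 of the 14 were called and all were higher in dLG; in dLG against MGv, 6 were called, again all higher in dLG; in VPM against MGv, 4 were called, 2 in each direction. The median log2 difference of the 14 was 0.66, 0.97 and 0.15 in these contrasts, against 0, 0.02 and 0.02 over all genes tested, and the shares called were 21.4%, 42.9% and 28.6%, against 10.7%, 16.1% and 19%. These counts moved with single libraries. Leaving out 1 library at a time gave 1 (without dLG replicate 4) to 5 (without VPM replicate 3) in dLG against VPM. Over all genes tested those fits called 1166 and 2223, against 1704 with all libraries. In dLG against MGv the count was 2 without dLG replicate 3 or MGv replicate 3, 3 without dLG replicate 4 or MGv replicate 1, and 8 without VPM replicate 3. Over all genes tested the same fits called 2033, 1886, 2061, 2092 and 3300 in that order, against 2562 with all libraries. The filter on low counts could be passed through 1 nucleus alone, as A730094K22Rik, Gm29478 and 2610035F20Rik below passed it through dLG. Scarce genes could thus enter the 14 because dLG was high, so the medians, shares and directions are a description only. With at least 10 counts required in every library, 1 neighbour was called in each contrast, beside 1445, 1940 and 2445 calls over all genes.

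The largest differences lay at noncoding or unclassified transcripts close to the Zic1 and Zic4 pair. A730094K22Rik (chr9:91350214-91350953, minus strand, as Zic1, and 7.105 kb beyond the Zic1 end) had 1.4, 0.516, 4.03 and 3.01 CPM in dLG, at most 0.285 CPM in VPM and at most 0.351 CPM in MGv. It was 4.61 ± 1 (SE, log2) higher in dLG than in VPM and 3.28 ± 1.06 higher than in MGv. Gm29478, a long intergenic noncoding RNA that begins 15.13 kb beyond Zic4 on the same strand (chr9:91404474-91562818), had 1.34, 1.46, 2.72 and 3.44 CPM in dLG and 0.0927, 0.173, 0.372 and 0.238 CPM in VPM. It had no count in any MGv library. The dLG mean was 3.35 ± 0.6 (SE, log2) above VPM and at least 7.68-fold higher than in MGv, taking 3 counts in the shallowest MGv library as the floor. Both transcripts passed the filter on low counts only through their dLG libraries. Their differences are therefore a description, and no p-value is printed for them. Whether reads of these transcripts run on from Zic1 or Zic4 was not tested. Gm37477, antisense within Zic4, was at 0.659 CPM in dLG, 0.667 in VPM and 0.259 in MGv with overlapping libraries, and Gm37457, 30.21 kb beyond Zic1, at 1.46, 0.346 and 0.414 CPM, also overlapping.

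Farther out on chromosome 9, the phospholipid scramblase genes began 803.6 kb away. Plscr5 was called higher in both dLG (log2 difference 2.04 ± 0.68, edgeR, adjusted p = 0.07) and VPM (2.85 ± 0.68, adjusted p = 0.0143) than in MGv, although its dLG and MGv libraries overlapped. Plscr1 was called higher in dLG than in MGv (1.85 ± 0.61, adjusted p = 0.0659). On the other side, 1087 kb or more away, Tbc1d2b was higher in dLG than in VPM (0.72 ± 0.24, edgeR, adjusted p = 0.0969) and also higher in MGv than in VPM (adjusted p = 0.0791), and Adamts7, a metalloproteinase gene, was lower in VPM than in MGv by edgeR (-2.48 ± 0.52, adjusted p = 0.00632). Morf4l1, a chromatin gene, was at 42.7, 56.6 and 63.8 CPM in dLG, VPM and MGv and passed in no contrast.

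At the Zic2 and Zic5 pair, the transcript between them, 2610035F20Rik (chr14:122470284-122475199, minus strand), was at 0.545 to 1.22 CPM in dLG, 0.278 to 0.62 CPM in VPM and had 3 counts in MGv, all in replicate 1. It was higher in dLG than in MGv, with a ratio of summed counts of 11.1 (95% exact interval 3.65 to 54.9, counting error only). This transcript also passed the filter on low counts only through its dLG libraries. The difference is therefore a description, and no p-value is printed for it. Pcca, a propionyl-CoA carboxylase subunit gene 54.47 kb from Zic2, was 0.67 ± 0.23 (SE, log2) higher in dLG than in MGv (edgeR, adjusted p = 0.073), with overlapping libraries. Tm9sf2 (54.3, 63.9 and 54.8 CPM), Clybl (21.6, 23.5 and 19.3 CPM) and Ggact (5.81, 6.9 and 7.75 CPM in dLG, VPM and MGv) passed in no contrast.

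**Figure D4:**
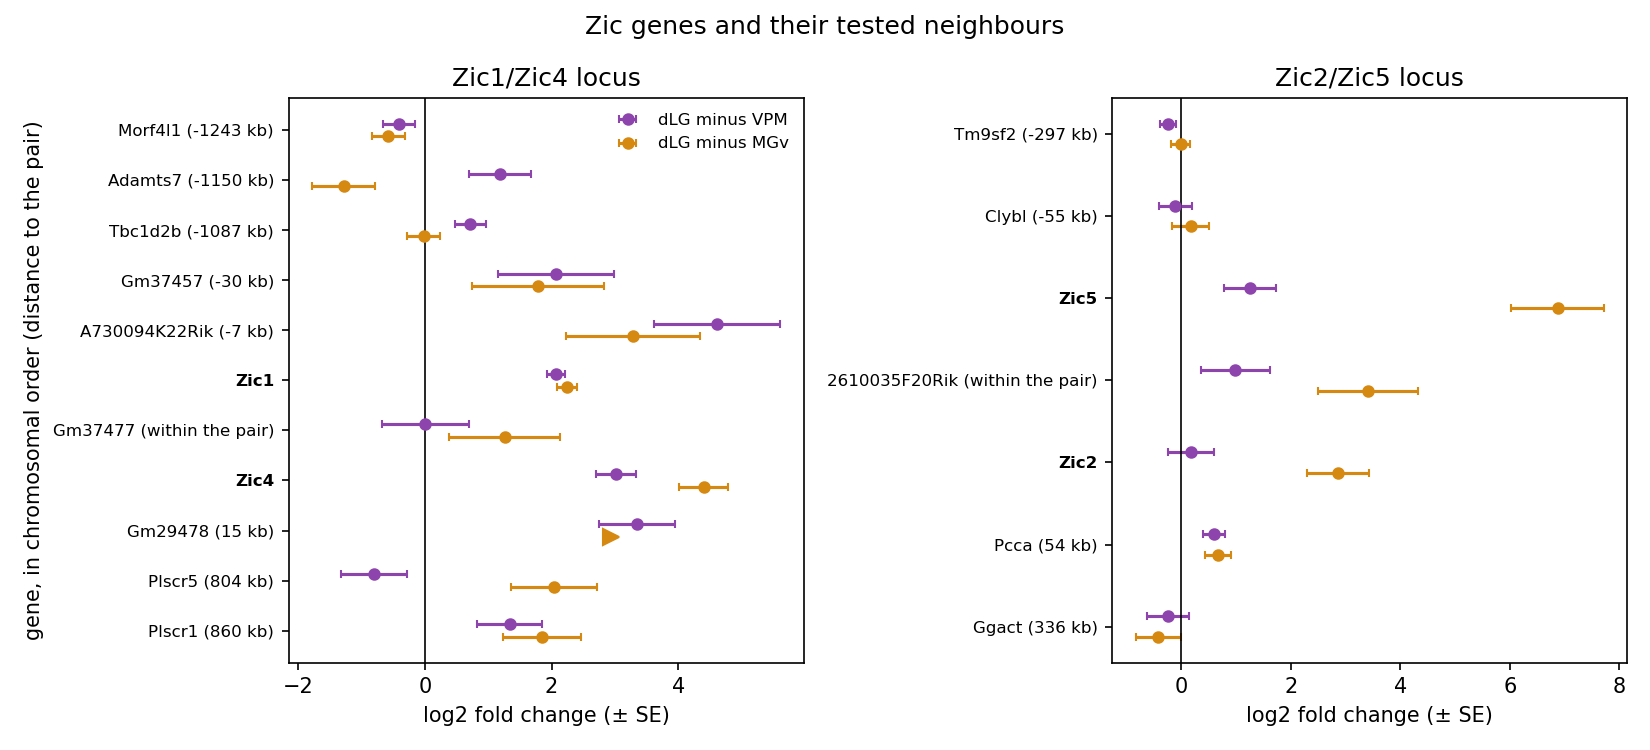
Fitted log2 fold change (horizontal axis, bars SE) of the Zic genes (bold) and their 14 tested neighbours at the Zic1/Zic4 locus (left) and the Zic2/Zic5 locus (right), for dLG minus VPM and dLG minus MGv, in chromosomal order with the distance to the pair in kb; the axes differ between panels. The arrowhead for Gm29478 marks the lower bound against MGv (7.68-fold), where it had no count, and the protein-coding neighbours in the right panel lie at 0.67 or less.

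Genes of the pathways in which Zic proteins act were read from 5 lists of 46 genes, of which 31 were tested. Of these, 7 were called in dLG against VPM (5 higher in dLG), 6 in dLG against MGv (4 higher in dLG) and 11 in VPM against MGv (5 higher in VPM). The median log2 difference over the 31 genes was 0, -0.04 and -0.15, against 0, 0.02 and 0.02 over all genes tested, and the shares called were 22.6%, 19.4% and 35.5%, against 10.7%, 16.1% and 19%. The lists were written with earlier results of these data known, so nothing is read from these shares. The adjusted p-values of their genes below are a description for the same reason.

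The relatives of the family were scarce. Of 6 Gli and Glis genes, encoding factors with the same kind of zinc fingers, 2 were tested and 2 were under 1 CPM in every library. Glis1 was at 1.7 ± 0.416, 2.37 ± 0.202 and 1.99 ± 0.297 CPM and Glis2 at 3.35 ± 0.919, 3.16 ± 0.944 and 3.44 ± 0.889 CPM (SD) in dLG, VPM and MGv. In each of the 3 contrasts 0 of these 2 were called by edgeR, 0 had an unadjusted p under 0.05, and DESeq2 and limma-voom called 0.

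In the Hedgehog list (12 genes, 8 tested), the ligand gene Shh was at 7.17 ± 2.8 CPM in dLG, 2.47 ± 0.452 in VPM and 5.46 ± 2.94 in MGv. The dLG level exceeded the VPM level by 1.54 ± 0.37 (SE, log2, edgeR, adjusted p = 0.0216). Shh was also lower in VPM than in MGv by edgeR (-1.15 ± 0.4, adjusted p = 0.0749), although the libraries of these nuclei overlapped. Smo, which encodes the signal transducer of the pathway, was at 5.59 ± 1.67 CPM in dLG, 5.14 ± 0.619 in VPM and 1.69 ± 0.434 in MGv, and was higher than in MGv by 1.72 ± 0.33 in dLG (edgeR, adjusted p = 0.00335) and by 1.6 ± 0.33 in VPM (adjusted p = 0.0056). Ptch1, the receptor gene and a common readout of the pathway, was at 15.5, 10.7 and 10.9 CPM and passed in no contrast. Smo thus shared with Zic2 a low level in MGv beside like levels in dLG and VPM, as did Lef1 and Parp1 of the lists below. Over all genes tested, 12.4% had all dLG above all MGv libraries and 13.1% all VPM above all MGv libraries.

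In the Wnt list (10 genes, 8 tested), 2 genes were called in dLG against VPM, 3 in dLG against MGv and 5 in VPM against MGv. Tcf7l2, a beta-catenin partner and a defining gene of the thalamus, was at 469 ± 151 CPM in dLG, 531 ± 43 in VPM and 1170 ± 109 in MGv; it was lower than in MGv by edgeR in dLG (-1.32 ± 0.19, adjusted p = 0.000442) and in VPM (-1.14 ± 0.19, adjusted p = 0.00144). Lef1, of the same family, went the other way, at 356 ± 28.7, 310 ± 54.8 and 189 ± 31.2 CPM, and was higher than in MGv in dLG by 0.91 ± 0.16 (edgeR, adjusted p = 0.00209) and in VPM by 0.72 ± 0.16 (adjusted p = 0.0103). The feedback inhibitors Nkd1 and Axin2 were lowest in VPM. Nkd1 was at 39 ± 7.91, 19.1 ± 1.06 and 59.4 ± 7.99 CPM and was called in all 3 contrasts, with edgeR adjusted p = 0.0012, 0.0312 and 3.33e-05, and Axin2 at 1.93 ± 0.667, 0.791 ± 0.238 and 3.87 ± 0.813 CPM was called in both contrasts with VPM, with adjusted p = 0.0614 and 0.00241.

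Among genes for proteins reported to bind Zic factors (10 genes, 9 tested), Mdfic, an inhibitor of transcription factors of the I-mfa family, followed an order like that of Zic4, at 3.34 ± 1.31 CPM in dLG, 0.9 ± 0.613 in VPM and 0.317 ± 0.335 in MGv. Its VPM and MGv libraries overlapped. It was higher in dLG by 1.87 ± 0.57 than in VPM (SE, log2; edgeR, adjusted p = 0.0636) and by 3.37 ± 0.74 than in MGv (adjusted p = 0.00792). Rnf180, a ubiquitin ligase gene, was highest in VPM (91.6 CPM against 64.4 in dLG and 56.5 in MGv, edgeR adjusted p = 0.0148 and 0.00255). Parp1, a DNA repair enzyme gene, was lowest in MGv (67 CPM in dLG, 71.4 in VPM and 45.2 in MGv, edgeR adjusted p = 0.0419 and 0.0196).

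Of 8 genes reported elsewhere as Zic targets, 4 were tested and 4 were under 1 CPM in every library. Slc6a4, the serotonin transporter that sensory thalamic axons carry transiently after birth, was at 55.2 ± 21.5 CPM in dLG, 268 ± 101 in VPM and 82.9 ± 29.5 in MGv. It was lower in dLG than in VPM by edgeR (-2.28 ± 0.33, SE, log2; adjusted p = 0.000705) and higher in VPM than in MGv by 1.69 ± 0.36 (adjusted p = 0.00701). Drd1, a dopamine receptor gene, was lowest in VPM (6.1 ± 2.11 CPM in dLG, 2.56 ± 0.422 in VPM and 6.09 ± 2.5 in MGv, edgeR adjusted p = 0.0317 and 0.0313). Ephb1, the guidance receptor that acts with Zic2 in retinal axons, was at 4.36, 5.64 and 6.39 CPM and passed in no contrast, nor did Apoe, an apolipoprotein gene, at 11.2, 26.4 and 23.7 CPM. In dLG against MGv, 0 of the 4 were called by edgeR, 0 had an unadjusted p under 0.05, DESeq2 called 0 and limma-voom called 1.

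Cells of other types that express Zic genes were looked for by their markers. Of 7 meningeal fibroblast markers, 6 were under 1 CPM in every library, 4 had no count in dLG, and the list summed to 0.602 to 1.95 CPM in dLG, 1.86 to 4.08 in VPM and 0.194 to 1.35 in MGv; the one tested, Col1a1, was at 0.795, 2.34 and 0.346 CPM. Of 7 habenular markers, 3 were under 1 CPM in every library, and the list summed to 33.7 to 57.6, 49.4 to 93.3 and 54.2 to 114 CPM. Its genes went different ways: Nwd2 (14.4, 53.4 and 42.3 CPM) and Gng8 (1.93, 5.04 and 21.4 CPM) were lowest on average in dLG, whereas Chrna3 (30, 18.1 and 12.4 CPM) was called higher in dLG than in MGv (log2 difference 1.28 ± 0.37, edgeR, adjusted p = 0.0403), and its part in the levels of Zic1 and Zic4 was not tested. Pretectal markers (6 genes, 5 under 1 CPM in every library) summed to 0.286 to 0.981, 0.248 to 0.476 and 1.73 to 3.01 CPM. The 8 radial glia and progenitor markers summed to 261 to 407 CPM in dLG, 393 to 487 in VPM and 141 to 214 in MGv. Much of that sum was Hes1 (57.6, 221 and 3.18 CPM), called lower in MGv than in the other nuclei, and Sox2 (158, 73.6 and 87.2 CPM), called higher in dLG than in both others. Vim (52.1, 54 and 31.5 CPM) was called lower in MGv than in the other nuclei, with overlapping libraries. Nes went the other way (3.34, 4.46 and 9.17 CPM), called higher in MGv. Fabp7 (65.5, 64.5 and 35.3 CPM), Hes5 and Top2a passed in no contrast, and Mki67 was under 1 CPM in every library. The part of these markers in the levels of the Zic genes was not tested. Astrocyte markers (6 genes) summed to 5.58 to 31.3, 40.5 to 53.5 and 64.2 to 115 CPM, and went different ways. Slc1a3 (6.35, 7.15 and 72.5 CPM) was called higher in MGv than in the other nuclei. Aldoc (6, 34.5 and 18 CPM) was called lower in dLG than in both others. Aqp4 (0.548, 0.122 and 1.01 CPM) was called higher in MGv than in VPM. Aldh1l1 (1.96, 2.8 and 2.41 CPM) and Gja1 (0.534, 1.05 and 0.51 CPM) passed in no contrast, and Gfap was under 1 CPM in every library. Markers of GABAergic and prethalamic neurons (8 genes, 5 under 1 CPM in every library) summed to 0.477 to 3, 1.05 to 5.32 and 2.18 to 4.39 CPM. Its 3 tested genes went different ways. Sox14 (0.663, 0.0443 and 0.313 CPM) was called higher in dLG than in VPM, with overlapping libraries. It passed the filter on low counts only through dLG, so this is a description. Gad1 (0.776, 1.03 and 1.84 CPM) and Gad2 (0.473, 0.81 and 1.02 CPM) passed in no contrast.

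The genes outside the family whose log2 CPM followed each member most closely over the 11 libraries were taken from 10474 tested genes with a mean of at least 5 CPM. For Zic1 they were Hs6st2, a heparan sulphate 6-O-sulphotransferase gene (r = 0.9795; 588, 40.9 and 28.9 CPM in dLG, VPM and MGv), Cpne8 (0.9687), Fam163a (0.9664), Sorcs3 (0.9657) and Tmem106c (0.9618). For Zic4 they were Sorcs3, a sorting receptor gene (r = 0.9811; 53.9, 8.47 and 5.23 CPM), Igfbpl1 (0.9771), Btbd3, a regulator of dendrite orientation in sensory cortex (0.9696; 204, 74 and 34 CPM), Ankrd9 (0.9688) and Gm973 (0.965). Sorcs3 stood in both of these sets of 5.

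For Zic5 the closest were Fgf15, a secreted growth factor gene (r = 0.9775; 12.5, 3.86 and 0.18 CPM), Bambi, a pseudoreceptor that dampens TGF-beta signals (0.973; 49.3, 32.7 and 7.6 CPM), Dmrtb1 (0.9724), Mag (0.9662) and Col9a1 (0.964). For Zic2 they were Lrrc4, a postsynaptic adhesion gene (r = 0.9629; 10.8, 12.9 and 4.27 CPM), Lypd6b (0.9624), Dpy19l1 (0.9619), Sowaha (0.9531) and Entpd5 (0.9378). Like the members they were matched to, the 10 genes of these sets had lower means in MGv than in dLG and VPM. The r values are a description over 11 libraries in which the nuclei set much of the spread.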

How the data were processed

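Sorted thalamic neurons of 3 nuclei were profiled by bulk RNA sequencing in 11 libraries. What was deposited is a table of unnormalized counts of reads, one for each library. As the labels and methods state, the authors read single ends of 50 bases, trimmed them with Trim Galore 0.6.1 and cutadapt 2.3, aligned them to GRCm38 with STAR 2.7.0d and counted them in Ensembl genes with featureCounts of Subread 1.6.4. Whether strand was used and how multiply aligned reads were treated is not given in the sources used here.

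Groups came from the sample labels. The members and gene lists were chosen with earlier results of these data known. Symbols and positions were taken from GENCODE M21 (54723 of 54752 identifiers matched). All 11 libraries entered edgeR 4.0.16 (R 4.3.3, quasi-likelihood, two-sided, filterByExpr, TMM, 3 group means) and 15907 genes were tested, with Benjamini-Hochberg adjustment over all of them and a threshold of 0.1. The SE of a log2 fold change is its absolute value divided by the square root of F. CPM and RPKM use TMM-scaled totals, and log2 CPM a prior count of 2. The sources do not say whether pools came from separate litters, so p-values cover the spread between these libraries. No pair of libraries within a nucleus agreed within sampling noise, and the fit was tested on simulated data. Named genes were the members, up to 4 called genes of each list, all tested neighbours and the 5 genes most like each member; Gli and Glis genes, Ptch1, Ephb1, Apoe, Morf4l1 and Hspa8 beyond that rule were named after their values were seen. Alternatives were DESeq2 1.42.0, limma-voom 3.58.1, other scalings, filters and thresholds, thinning of counts, a replicate block, and leaving out libraries.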

Additional observations from a re-analysis of the deposited data

Results flagged for a closer look

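Of 64 sets of 4 libraries, one gene in one nucleus each, 5 had a library far from the other 3; chance alone flags about 1 in 20 sets. In VPM, replicate 3 was high for Zic5 (9.99 CPM), for Morf4l1 (88.3 CPM) and for Clybl (36 CPM). A730094K22Rik was high in VPM replicate 4 (0.285 CPM). Tbc1d2b was low in dLG replicate 3 (4.3 CPM). VPM replicate 3 is also one of the 3 libraries with a low Hspa8 level (4.09 CPM there), and whether that moves the 3 genes was not tested.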

How the results depend on the processing

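The log2 differences of the members were recomputed under 22 or 23 alternatives each. Those of Zic1 and Zic4 from dLG to the other nuclei kept their direction and their call in all of them, ranging from 2 to 2.18 (Zic1) and 2.84 to 3.39 (Zic4) against VPM and from 2.15 to 2.37 and 4.05 to 4.62 against MGv. Zic5 in dLG against VPM ranged from 1 to 1.99 and passed the threshold under 8 of 22 alternatives, among them the fit without VPM replicate 3 (1.99). Zic2 in dLG against VPM ranged from -0.27 to 0.44 and never passed. With at least 10 counts required in every library, Zic2 and Zic5 were not tested, so 2 members were called in dLG against MGv and 1 in VPM against MGv, and 1 neighbour in each contrast. Over all genes that fit called 1445 in dLG against VPM, 1940 in dLG against MGv and 2445 in VPM against MGv.

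Neighbours called in dLG against VPM were 5 with DESeq2 and 8 with limma-voom, which also called 16 pathway genes there. In dLG against MGv, 2 passed an adjusted p under 0.05, and in VPM against MGv 2 were called when only those nuclei were fitted. Over all genes tested, 1832 and 2460 were called there. Leaving out single libraries gave 1 to 5 neighbours in dLG against VPM (1 without dLG replicate 4 and 5 without VPM replicate 3) and 2 to 8 in dLG against MGv (2 without dLG replicate 3 or MGv replicate 3, 3 without dLG replicate 4 or MGv replicate 1). Calls over all genes tested moved as well, to 1166 without dLG replicate 4 and 2223 without VPM replicate 3 in dLG against VPM. For all genes tested, DESeq2 called 2363 and limma-voom 4414 in dLG against VPM, against 1704. With the longest transcript in place of merged exons, Zic4 over Zic1 was 2.06 in dLG, 1.04 in VPM and 0.448 in MGv, in place of 0.788, 0.397 and 0.171.

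The replicate block gave 3, 4 and 3 members called in the 3 contrasts and 3 neighbours in dLG against MGv. Over all genes tested it called 1464, 2169 and 2695 in the 3 contrasts. On average, deviations from the nucleus means were not shared within a replicate number (mean r 0.0155 over 10 pairs, from -0.203 to 0.483). Over 30 other pairs the mean was -0.00505, from -0.311 to 0.268, so the highest r within a replicate number lay above all of these. From the means, the numbers were not taken to pair the libraries. Depth limits the values in MGv, the shallowest nucleus, where Zic2 and Zic5 rest on 11 and 3 counts. The causes of these shifts were not tested.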

Other observations

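Other marker lists were also summed in each library. Microglial markers (4 genes) summed to 4.69 to 9.97 CPM in dLG, 7.94 to 17.2 in VPM and 9.92 to 18 in MGv. Endothelial and mural markers (5 genes) summed to 3.98 to 5.97, 4.72 to 6.7 and 2.92 to 3.91 CPM, and choroid plexus markers (4 genes, all under 1 CPM in every library) to 0.239 to 0.708, 0.216 to 0.806 and 0.972 to 1.14 CPM. Immediate early and other genes of the dissociation response (9 genes) summed to 505 to 688 CPM in dLG, 332 to 409 in VPM and 619 to 767 in MGv, a sum lowest in VPM. Of the 9, 4 were called lower in VPM than in dLG (44.4%, beside 10.7% of all genes tested called). In VPM against MGv, 5 were called lower in VPM (55.6%, beside 19%). Dnajb1 (133, 133 and 151 CPM in dLG, VPM and MGv), Hspa1a, Hspa1b and Atf3 passed in no contrast. Gbx2, the gene that drives the Cre of the sorted lineage, was at 29.4 CPM in dLG, 35.3 in VPM and 304 in MGv.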
